A study of Mus musculus with 10 samples.

Results

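The decay of transcripts over 4 h in low IL-3 was read from 4 of the 10 arrays of the experiment, namely the 2 arrays taken at 0 h and the 2 taken at 4 h in low IL-3, compared within experiment 1 and within experiment 2. The cells were 32Dcl3, an established mouse myeloblast line that depends on IL-3 for growth. They were washed free of IL-3 and given actinomycin D at 10 µg/ml, and IL-3 was then added at 10 pg/ml (low IL-3) or at 1000 pg/ml (high IL-3), so that all 4 h samples carried both the drug and the cytokine. Each of the 5 groups (0 h, 2 h and 4 h in low IL-3, 2 h and 4 h in high IL-3) held 2 arrays, 1 from each of 2 divided cultures. The p-values therefore rest on how far the changes disagreed between 2 cultures of 1 cell line. The difference in level between the cultures was removed first, and the spread was estimated from all 10 arrays. The titles place 0 h after the drug, another label places the 0 h collection before it, and the methods count time from the addition of cytokine to cells that already held the drug. This difference could not be settled. Affymetrix mouse 430A 2.0 arrays were used. Of 22690 probe sets, 11856 (52.3%) had a mean intensity of at least 50 over the 10 arrays and were tested, and they stood for 6792 genes.

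Actinomycin D binds DNA and stops RNA polymerases, so that in a chase of this kind a transcript that is not remade is lost at the rate of its own decay. In mammalian cells decay mostly begins with shortening of the poly(A) tail by the CCR4-NOT complex, after which the message is decapped or degraded by the exosome. AU-rich elements in the 3′ untranslated region, bound by proteins of the Zfp36 family, are a known mark of short-lived messages of early response genes and cytokines, while messages of ribosomal proteins and of metabolic enzymes are known to be long-lived. In myeloblasts, IL-3 maintains survival and proliferation through the JAK2, RAS and PI 3-kinase pathways.

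The median array intensity lay between 48.8 and 70.6, and the 75th percentile was 331 in experiment 1 and 325 in experiment 2 after 4 h in low IL-3, against 499.8 and 399 before. Of 10 myeloblast markers, 8 had a mean intensity of at least 50, among them Ctsg, Prtn3, Myb and Gata2, while Elane and Kit did not. The summed intensity of the 10 was 17214 and 12193 at 0 h. The lymphoid markers were all under 50 on average, with sums of at most 119, and 3 markers each of mast cells and basophils, of macrophages, and of erythroid cells and megakaryocytes reached 50. The experiments differed before the chase in some lineage genes: Mpo stood at 3409 in experiment 1 and 509 in experiment 2, and Cebpa at 248 and 821. In bulk samples such as these, fewer cells of a type and less RNA per cell cannot be told apart.

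After 4 h in low IL-3 the median probe set kept 85.0% of its 0 h signal in experiment 1 and 96.6% in experiment 2. The range was wide: 94 probe sets of 81 genes were below 10% in both experiments, 666 probe sets of 546 genes were below 25%, and 1982 probe sets of 1488 genes were below 50%. In a limma fit of log2(intensity + 16), blocked by experiment, and at a Benjamini-Hochberg adjusted p under 0.05 over all tested probe sets, 4535 probe sets (38.3%) fell and 1819 (15.3%) rose, and 5502 were not called. A fall of more than 1 on the log2 scale was seen in 2137 probe sets, of more than 2 in 633 and of more than 3 in 123, whereas a rise of more than 1 was seen in 43. Without the block 2148 fell and 148 rose. Leaving out the 0 h array of experiment 2 lowered the number that rose to 837, and leaving out its 4 h array in low IL-3 lowered it to 718. The log2 changes in the 2 experiments had a Pearson correlation of 0.914 over the tested probe sets (these do not count as independent replicates) and a median absolute difference of 0.25. The direction was opposite in 2372 probe sets (20.0%).

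**Figure D1:**
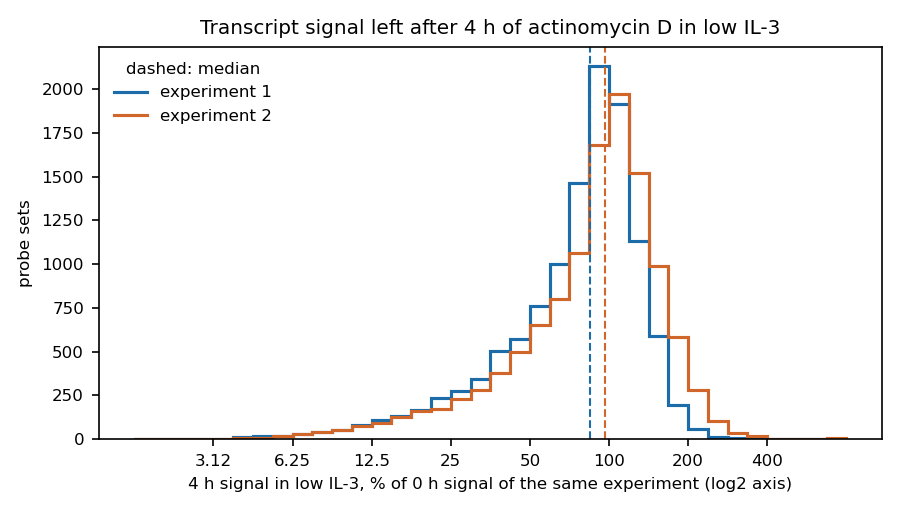
Number of tested probe sets (vertical axis) by the signal left at 4 h in low IL-3 as a percentage of the 0 h signal of the same experiment (horizontal axis, log2 scale), in experiment 1 (blue) and experiment 2 (orange), with the median of each as a dashed line. Both distributions peak near 100%, with medians of 85.0% and 96.6%, and have a long tail of short-lived transcripts to the left.

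A value of more than 100% is a gain in normalised signal and cannot be read as a gain in transcripts per cell, since the arrays measure each message against the others. The median log2 change over the tested probe sets was -0.12. It became 0.30 after scaling every array to the same 75th percentile, 0.15 with quantile normalization, -0.10 with Gapdh as the reference and 0.31 with each array centred on its median. Changes of named genes are therefore given relative to the median tested probe set and called the relative log2 change, while the test itself was against no change in the deposited values. The share of calls that rose was 28.6% in the deposited values, 67.2% after 75th percentile scaling, 60.4% after quantile normalization, 30.0% with Gapdh and 68.1% after median centring. Under all 5 scalings 2757 probe sets (23.3%) fell and 1764 (14.9%) rose. By mean intensity in 10 equal groups, the share that fell was 32.5% in the dimmest, 41.0% to 45.1% in those from 117 to 764, and 24.1% in the brightest, at 2264 and above, where 3.79% fell under all scalings.

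The filter kept 113 probe sets with both 0 h arrays under 50, of which 64 rose, and 396 with both 4 h arrays in low IL-3 under 50, of which 376 fell. Such probe sets passed through their brighter group and had to differ, so these counts describe the filter. Of the 10834 probe sets left out, 1036 reached 50 on at least 1 of the 4 arrays. Just inside the limit lay a probe set of Ercc5 with 69.9 and 54.8 at 0 h and 50.7 and 21.9 at 4 h, and just outside it one of Cbx1 with 46.1 and 20.4 at 0 h and 64.8 and 56.7 at 4 h.

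The shortest-lived transcripts were taken as the 15 genes with the largest fall in log2(intensity + 16), a scale that understates the fall of dim transcripts. They kept 2.77% to 6.29% of their 0 h signal. Some other genes, among them Med26, Cebpa and Dusp6, lay within this range by percentage but had smaller falls on that scale. Between 0 h and 4 h the half-lives of the 15, each by its extreme probe set, came to 0.75 to 1.00 h if loss was exponential. Other probe sets of these genes gave longer ones. They were 3.19 h for Sesn2, 1.28 h for Wee1, 1.20 h for Id2, 1.11 h for Cited2 and 1.46 and 1.14 h for Nfkbia. Myc, Dusp2 and Nfkbia were furthest from exponential loss, as nearly all of their measured loss had occurred by 2 h. By these probe sets their intensities were then 22.4 to 54.7, and whether a floor hid a further fall was not tested. On the log2(intensity + 16) scale the other genes also fell more by 2 h than from 2 h to 4 h. The changes were -3.58 and -1.19 for Cited2 and -2.14 and -1.69 for Lsm8. The half-lives are therefore averages over the 4 h. The 15 included transcription regulators, mitotic regulators, RNA-processing factors and inhibitors of signalling. Their 0 h intensities were 449 to 4803. Percentages are the mean ± SD of n = 2 experiments, and pairs of intensities are experiment 1 and experiment 2 in that order.

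The largest fall on the log2(intensity + 16) scale was that of Cited2, a co-regulator that binds the acetyltransferases CBP and p300. Its signal was 4803 and 4449 at 0 h, 476 and 290.4 at 2 h and 159 and 151 at 4 h, so that 3.34% ± 0.0563 was left, with a relative log2 change of -4.64 (SE 0.18, adjusted p = 2.3e-10 from limma). Its second probe set kept 8.23%. Sesn2, a stress-induced inhibitor of mTORC1 signalling, went from 924 and 738 to 41.7 and 7.61, leaving 2.77% ± 2.46, the lowest percentage of the 15. Its second probe set fell much less, from 449.7 and 609 to 203 and 234, and kept 41.8% ± 4.82. Myc, the growth-promoting transcription factor, went from 1463 and 1064 to 54.7 and 40.9 at 2 h and stood at 64.5 and 38.3 at 4 h, or 4.00% ± 0.574. Thus the Myc signal had reached its low level within 2 h. Bhlhe40, a basic helix-loop-helix repressor, went from 1873 and 1732 to 91.5 and 121 (5.93% ± 1.47), and Id2, which blocks basic helix-loop-helix factors by dimerization, from 1222 and 766 to 60.5 and 41.0 (5.15% ± 0.283, and 9.85% by its second probe set). Pnrc1, a nuclear receptor coactivator, went from 2172 and 1348 to 158 and 58.4 (5.80% ± 2.07).

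Among the mitotic regulators, Wee1, the kinase that holds CDK1 inactive, went from 1034 and 533 to 43.7 and 17.2 (3.73% ± 0.699, and 11.4% by its second probe set). Aurka, the spindle kinase Aurora A, went from 1323 and 1279 to 57.1 and 69.8 (4.89% ± 0.805), and Ccnf, the F-box protein cyclin F, from 685 and 449 to 23.4 and 19.6 (3.89% ± 0.668). In each of these 3 genes the 2 h value lay between the 0 h and the 4 h value of the same experiment. Of the RNA-processing genes, Dbr1, the enzyme that opens intron lariats, went from 883 and 598 to 36.5 and 16.6 (3.46% ± 0.967). Phax, the adaptor for nuclear export of small nuclear RNA, went from 951 and 637 to 41.8 and 27.3 (4.34% ± 0.0717). Lsm8, a subunit of the nuclear Lsm ring on U6 small nuclear RNA, still had 637 and 299 at 2 h after 2101 and 1871 at 0 h, and reached 133 and 117 at 4 h (6.29% ± 0.0428). Riox1, a nucleolar oxygenase that modifies a ribosomal protein, went from 1624 and 1151 to 129 and 44.1 (5.89% ± 2.91).

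The feedback inhibitors were Dusp2, a phosphatase of MAP kinases, and Nfkbia, the inhibitor IκBα of NF-κB. Dusp2 went from 738 and 477 to 29.4 and 22.4 at 2 h and 20.4 and 31.0 at 4 h (4.63% ± 2.63). Nfkbia went from 549 and 694 to 28.3 and 23.6 and 24.6 and 30.6 (4.44% ± 0.0612), and its 2 other probe sets also fell, by relative log2 changes of -2.54 and -2.97. The first of them, the brightest, stood at 301 and 241 at 2 h and 273 and 256 at 4 h. The second stood at 71.0 and 47.4 and then 36.2 and 51.5. For both messages the change between 2 h and 4 h did not pass the test.

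Across the 15 genes the adjusted p from limma was 2.3e-10 to 1.9e-09, with SEs of 0.18 to 0.24, values that describe genes chosen for this fall and add no support to it. Between 2 h and 4 h in low IL-3, 18.9% of all tested probe sets fell and 2.21% rose. Of the 15 genes 12 fell in that interval, a count that the choice of genes by the same 4 h arrays favours. The exceptions were Myc, Dusp2 and Nfkbia. In 7 of the 15 both 4 h arrays were under an intensity of 50 (10 had at least 1), so that these genes passed the filter on mean intensity through their brighter samples. In high IL-3 the same 15 genes kept 2.96% to 9.51%, and none differed between high and low IL-3 at 4 h at an adjusted p under 0.05. The paper lists Cited2 among the transcripts that IL-3 stabilized on Northern blots, there against medium without IL-3. The probe sets of Cited2 kept 3.34% and 8.23% in low and 4.06% and 15.4% in high IL-3, and neither passed the contrast.

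**Figure D2:**
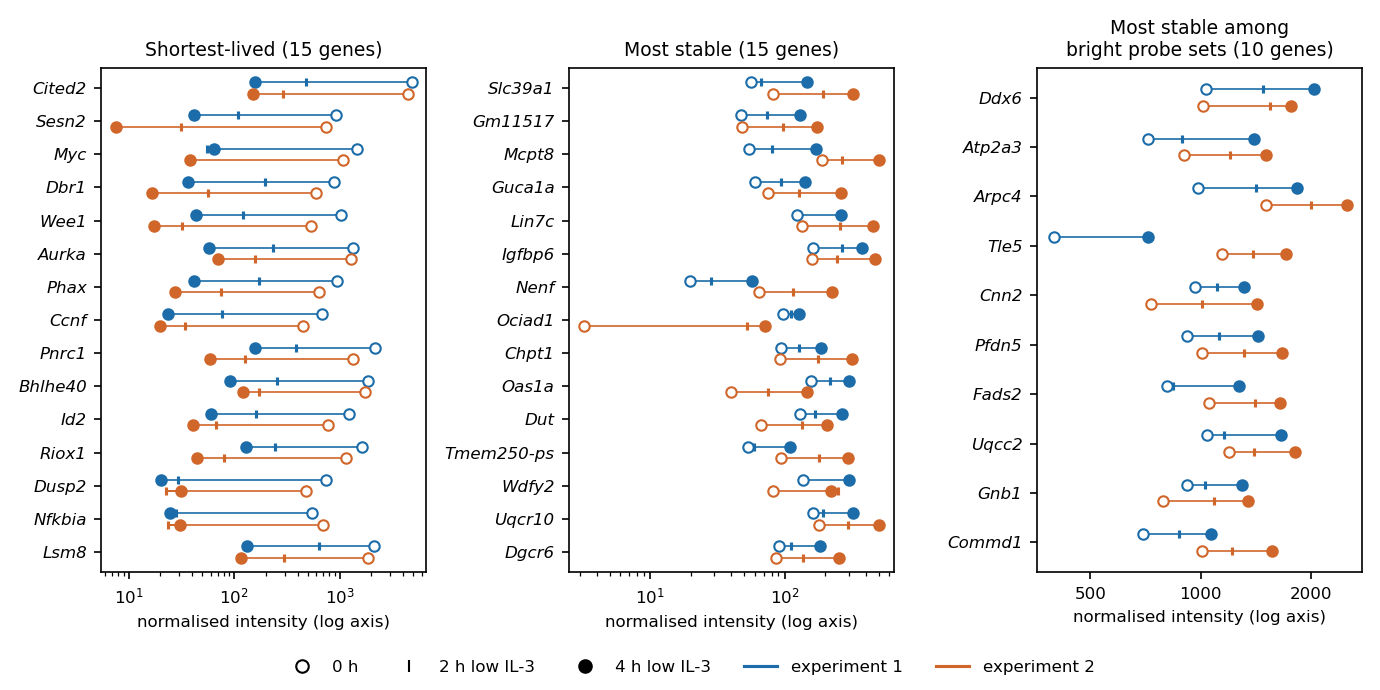
Normalised intensity (horizontal, log axis) at 0 h (open circles), 2 h in low IL-3 (ticks) and 4 h in low IL-3 (filled circles), in experiment 1 (blue) and experiment 2 (orange), for the 15 shortest-lived genes, the 15 most stable genes and the 10 most stable genes with a mean intensity of at least 1000. In the left panel all 4 h points lie far left of the 0 h points, and in the other panels all 4 h points lie to the right of their own 0 h point. Those distances are smaller, apart from that of Ociad1 in experiment 2, which went from 3.21 to 70.8.

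The 15 genes with the largest rise gained relative log2 changes of 1.27 to 1.60, much less than the falls at the other end, and they were dim. Their 0 h intensities were 3.21 to 188, and 8 of them had both 0 h arrays under 100. Slc39a1, a zinc importer, went from 55.9 and 82.0 at 0 h to 66.4 and 193 at 2 h and 147 and 321 at 4 h, or 327% ± 90.8 of its 0 h signal (relative log2 change 1.60, SE 0.23, adjusted p = 5.8e-05 from limma). The predicted gene Gm11517 went from 47.6 and 48.2, both under 50, to 131 and 174, and passed the filter only through its brighter arrays. Mcpt8, a protease of basophils, went from 54.5 and 188 to 172 and 507 (292% ± 32.3). The 9 mast cell and basophil markers on the array summed to 1205 and 1849 at 0 h and to 1355 and 2787 at 4 h, with Mcpt4 at 2.56 and 1.00 at 0 h. Cpa3 made up most of the sum, with 1005 and 1412 at 0 h and 1022 and 1752 at 4 h, and was not called, while Fcer1a rose from 25.4 and 155 to 31.7 and 310.3 (relative log2 change 0.69, adjusted p = 0.032 from limma). Their part in the rise was not tested. Guca1a, known as an activator of guanylate cyclase in photoreceptors, went from 59.8 and 74.95 to 141 and 261, and Lin7c, a scaffold protein, from 124 and 134 to 264 and 456.

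Igfbp6, a binding protein of insulin-like growth factors, went from 163 and 161 to 379 and 473, and Nenf, the secreted protein neudesin, from 19.9 and 64.9 to 57.2 and 225. Chpt1, an enzyme of phosphatidylcholine synthesis, went from 93.4 and 92.0 to 185 and 317, and its 3 other probe sets rose too. Oas1a, an interferon-induced antiviral enzyme, went from 156 and 39.6 to 303 and 146. Experiment 1 was higher than experiment 2 at both times, so that the groups overlapped. The 0 h and 4 h values of Mcpt8, Nenf and Ociad1 also overlapped between the experiments. Dut, the enzyme that hydrolyses dUTP, went from 129.9 and 66.3 to 266 and 207, Wdfy2, an endosomal protein, from 138 and 82.6 to 300.0 and 223, and Dgcr6 from 91.2 and 86.2 to 183 and 253. The transcribed locus Tmem250-ps went from 52.98 and 93.7 to 109 and 294, and Uqcr10, a subunit of respiratory complex III, from 164 and 179 to 320.1 and 502. Ociad1 stood at 97.2 and 3.21 at 0 h and 128 and 70.8 at 4 h, and its place among the 15 rests on the single 0 h value of 3.21.

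For several of these genes another probe set was not called or moved less. The other probe set of Ociad1 stood at 2030.0 and 1552 at 0 h and 1786 and 1555 at 4 h and was not called. The other Dut probe set went from 2522 and 2498 to 2579 and 2826, and the other Lin7c probe set from 199 and 160.3 to 212 and 198, and neither was called. Of the 2 other probe sets of Uqcr10, 1 rose, with a relative log2 change of 0.35. Over the 15 genes, chosen for this rise, the adjusted p values from limma were 5.4e-06 to 0.0035. Without the block 8 of the 15 were called, beside 148 rises among all 11856 probe sets. Between 2 h and 4 h in low IL-3 13 of the 15 rose further, a count that the choice of genes by the same 4 h arrays favours. In high IL-3 they stood at 145% to 873% (Ociad1) of the 0 h signal. Between high and low IL-3 at 4 h none passed at an adjusted p under 0.05. The log2 differences, high minus low, ran from -0.88 (Lin7c, 145% against 276%) to 0.42 (Wdfy2), with a median of -0.35.

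Because the largest rises were dim, the 10 most stable genes with a mean intensity of at least 1000 were also taken, a list chosen after the values were seen. Their relative log2 changes were 0.74 to 1.00, and they kept 154% to 185% of the 0 h signal. Ddx6, an RNA helicase of the decapping machinery and of processing bodies, led with 1036 and 1017 at 0 h, 1481 and 1544 at 2 h and 2042 and 1763 at 4 h (relative log2 change 1.00, SE 0.12, adjusted p = 1.0e-05 from limma), although its 2 other probe sets were not called. Arpc4, a subunit of the actin-nucleating Arp2/3 complex, went from 983 and 1505 to 1835 and 2517, and Atp2a3, a calcium pump of the endoplasmic reticulum, from 721 and 901 to 1399.7 and 1507. Both had a second probe set that rose. Pfdn5, a subunit of the prefoldin chaperone, went from 919 and 1011 to 1432 and 1672, and Fads2, a fatty acid desaturase, from 811 and 1052 to 1276 and 1652. Uqcc2, an assembly factor of complex III, went from 1041 and 1198 to 1660.0 and 1808. The remaining members were Cnn2, Gnb1, Commd1 and Tle5, a co-repressor of the Groucho family that stood at 397 and 1146 at 0 h and at 719 and 1709 at 4 h. The Tle5 values at 0 h and 4 h overlapped between the experiments. Without the block 6 of the 10 were called, and Tle5 then had an adjusted p of 0.61 from limma.

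Gene groups were described with 1 probe set per gene, the brightest. Of the 6792 genes, 2961 (43.6%) fell and 933 (13.7%) rose, 1865 (27.5%) fell and 904 (13.3%) rose under all 5 scalings, and the median gene kept 86.3%. Of the genes 28.4% fell and 45.1% rose with 75th percentile scaling, 31.2% and 37.1% with quantile normalization, 41.5% and 13.8% with Gapdh as the reference, and 27.9% and 46.1% with median centring. The counts of each group are read against these shares, and no group was tested as a group.

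Transcription regulators were among the lists with the lowest medians. Of 20 myeloid and stem cell transcription factors, 17 fell and 0 rose, 16 fell under all scalings, 12 were below 25% in both experiments, and the median gene kept 16.5%. Cebpa, which directs granulocytic commitment, went from 248 and 821 to 10.5 and 37.3 (4.39% ± 0.225). It fell to a like share in both experiments from 0 h levels that differed between them. Cebpb, its relative of the acute response, went from 1454 and 1289.6 to 126 and 92.7 (7.93% ± 1.05), and Gfi1, a repressor needed for neutrophil maturation, from 945 and 491 to 88.7 and 64.9 (11.3% ± 2.72). Not called were Gata1, Irf8 and Runx1, the last of which stood at 102 and 138 at 0 h and 126 and 224 at 4 h. Of 9 genes of the MYC and MAX network 6 fell and 0 rose, 5 under all scalings. Mycn went from 2208 and 1609.7 to 148 and 133 (7.50% ± 1.11) beside Myc, and the MAX-binding repressors Mnt and Mxi1 kept 21.3% ± 3.39 and 46.7% ± 6.05. The family thus ranged from Myc, with 4.00% ± 0.574, to Mxd3, which was not called at 118% ± 28.7.

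Of 15 immediate early transcription factors 11 fell and 1 rose (9 and 1 under all scalings). Klf10 went from 566 and 327 to 41.5 and 31.9 (8.55% ± 1.71), Ier2 from 877 and 1985 to 258 and 232, Junb from 361 and 388 to 107 and 42.3, and Fos from 358 and 106 to 51.5 and 19.2. Between 2 h and 4 h Junb and Ier2 had log2 differences of 0.05 and 0.27 that did not pass. The exception was Nr4a2, an orphan nuclear receptor, which rose from 80.03 and 47.5 to 121 and 70.7. Of 80 C2H2 zinc finger genes with a Zfp symbol 58 fell, 45 under all scalings, and 2 rose. They had a median of 45.7% left. Zfp622 went from 2309 and 1758 to 293 and 177 (11.4% ± 1.86), and Zfp931, 1 of the 2 that rose, from 252 and 225 to 335 and 422.

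The proteins that bind AU-rich elements were split. Of 13 tested, 7 fell and 0 rose, 4 fell under all scalings, and with 75th percentile scaling 4 fell and 5 rose. Zfp36l2, a member of the tristetraprolin family, went from 3455 and 2939.6 to 286 and 260.2, leaving 8.57% ± 0.401 (relative log2 change -3.35, SE 0.18, adjusted p = 8.6e-10 from limma). Zfp36l1 kept 31.4% ± 2.33 and Zfp36 itself 29.1% ± 15.8, and Pcbp1, a poly(C)-binding protein, 43.5% ± 1.13. At the other end Elavl1, the stabilizing protein HuR, stood at 1400.1 and 1708 and then 1375 and 1689 and was not called. Messages of the decay-promoting Zfp36 family therefore fell in all 3 measured members.

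Of 23 MAP kinase phosphatases, Sprouty, SOCS and NF-κB inhibitor genes 19 fell, 17 under all scalings, none rose, and the median gene kept 23.2%. Dusp6, the ERK-directed phosphatase, went from 871 and 884 to 48.5 and 48.5 (5.53% ± 0.0503). Spred2 and Spry2, which restrain the RAS pathway, kept 9.89% ± 0.251 and 9.82% ± 2.02. Spred2 fell further between 2 h and 4 h, by a log2 of 1.57, and Spry2 did not pass for that interval at -0.03. Dusp7, Dusp3 and Nfkbiz were not called. Of 12 PIM kinase and PI 3-kinase pathway genes 8 fell (7 under all scalings) and 1 rose. Pim3 went from 370.1 and 320.5 to 54.0 and 35.4 and Pim1, a survival kinase induced by cytokines, from 1683 and 1882 to 450.0 and 318 (21.8% ± 6.97). Akt1 stood at 2123 and 2244 and then 1978 and 2407, and Akt2 rose from 310.5 and 459 to 419 and 695.

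Of 13 cytokines, chemokines and growth factors 8 fell and 3 rose (6 and 3 under all scalings). Il6 went from 787 and 994 to 122 and 194 (17.5% ± 2.82), Hbegf, a growth factor of the EGF family, from 935 and 1158 to 210.2 and 242 (21.7% ± 1.12), and Vegfa from 631 and 409 to 153 and 71.5 (20.9% ± 4.83). Those that rose were all chemokines of the CC class, Ccl9 from 3439 and 3192 to 3895 and 3983, Ccl6 from 2315 and 1177 to 2572 and 1574 and Ccl3 from 63.1 and 44.0 to 106 and 68.9. Of 15 cytokine receptors 8 fell (6 under all scalings) and 1 rose. Il4ra went from 325 and 1054 to 22.6 and 105 (8.46% ± 2.10), and Csf2rb2, the IL-3-specific beta subunit of the mouse, from 1012 and 1359 to 409 and 611 (42.7% ± 3.25). The gene that rose was Il3ra, the IL-3 receptor alpha subunit, from 331 and 272 to 496 and 528 (172% ± 31.2). The subunits of the IL-3 receptor thus moved in opposite directions.

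Of 23 BCL2 family, caspase and IAP genes 12 fell and 1 rose, 8 and 0 under all scalings, and with 75th percentile scaling 8 fell and 8 rose. Mcl1, an anti-apoptotic member of the BCL2 family, went from 3133 and 3604 to 455 and 432, leaving 13.3% ± 1.81 and a half-life of 1.37 ± 0.0927 h. Apaf1, the apoptosome scaffold, kept 18.98% ± 0.766, and the BH3-only genes Bbc3 and Bid kept 23.1% ± 8.14 and 26.6% ± 1.46. Bak1 and Diablo were not called, and Bcl2l2, which rose in the deposited values, did not under every scaling. Death-promoting and survival genes were thus both among the short-lived. Of 17 p53 regulators and targets 11 fell and 3 rose (8 and 3 under all scalings). Ddit4, an inhibitor of mTORC1, went from 1992 and 1741 to 284 and 212 (13.2% ± 1.47), and Cdkn1a, which encodes the cyclin-dependent kinase inhibitor p21, from 2999 and 2661 to 689 and 537 (21.6% ± 1.98). Zmat3, Ei24 and Rrm2b rose. Of 44 heat shock protein and DnaJ genes 21 fell and 4 rose (12 and 17 with 75th percentile scaling), from Dnajb1 with 15.4% ± 5.77 to Hspbp1 with 162% ± 19.8.

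**Figure D3:**
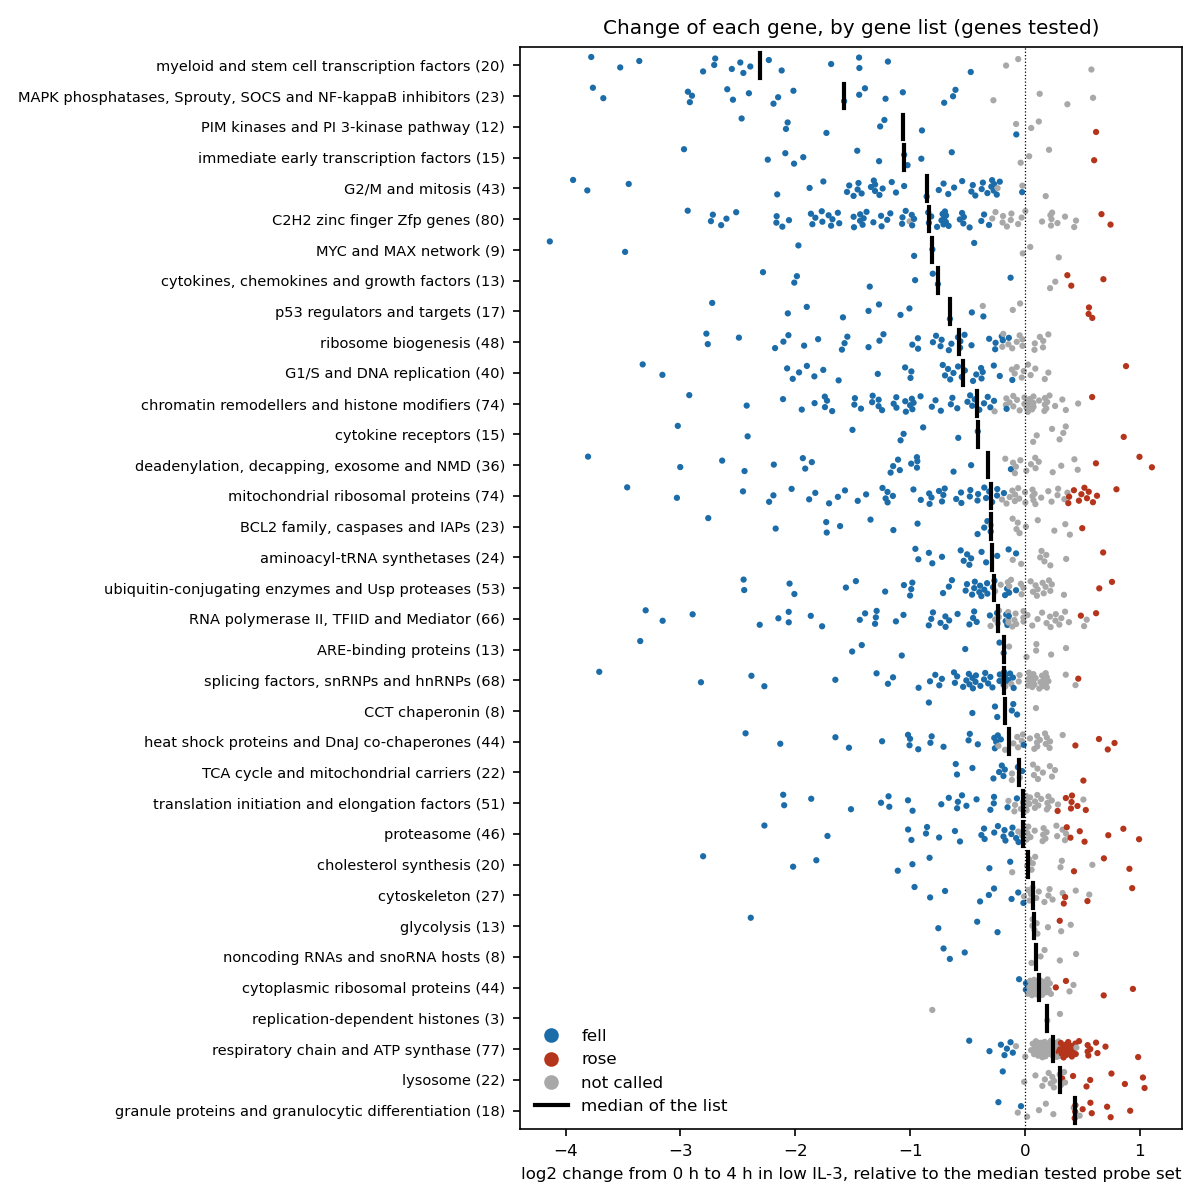
Log2 change from 0 h to 4 h in low IL-3 relative to the median tested probe set (horizontal axis) of each gene of 35 lists, with the number of genes tested in parentheses. Points are genes, blue where they fell, red where they rose and grey where they were not called, black bars are list medians, and the lists are ordered by median, from myeloid and stem cell transcription factors at -2.31 to granule proteins at 0.43.

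Nearly all mitotic messages fell in the deposited values. Of 43 G2/M genes 40 fell and 0 rose, 26 fell under all scalings, and the median gene kept 50.6%, while with 75th percentile scaling 26 fell and 3 rose. Beside Aurka and Ccnf, Plk1, the kinase that drives mitotic entry, went from 1308 and 1465 to 78.0 and 132 (7.48% ± 2.14), and Incenp, of the chromosomal passenger complex, from 2681 and 1678 to 573 and 314 (20.0% ± 1.86). Cks2 and Cks1b, close relatives that bind cyclin-dependent kinases, kept 24.8% ± 2.25 and 90.4% ± 0.728. Cks1b lay at the median of all probe sets, with a relative log2 change of -0.02 that turned positive with 75th percentile scaling. Cenpa, the centromeric histone, stood at 2206 and 2296 and then 2361 and 2333 and was not called.

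Of 40 G1/S and replication genes 29 fell and 1 rose (19 and 1 under all scalings). The licensing factors Cdt1 and Cdc6 led. Cdt1 went from 2467 and 1565 to 220.0 and 123 (8.40% ± 0.732, half-life 1.12 ± 0.0394 h) and Cdc6 from 779.9 and 378 to 49.2 and 35.1 (7.80% ± 2.11). Cdc25a, the phosphatase that activates CDK2, kept 20.3% ± 2.77, and Cdc45, of the replicative helicase, 20.3% ± 0.684. Cdk4 stood at 3115 and 3211 and then 3230.4 and 3329, E2f1 was not called, and Cdk6 rose from 25.8 and 76.7 to 43.0 and 172. Among the 3 replication-dependent histone genes that were tested none fell or rose.

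The general transcription machinery held some of the shortest-lived messages among many that moved little. Of 66 genes of RNA polymerase II, TFIID and Mediator 34 fell and 2 rose (23 and 2 under all scalings, and 24 and 20 with 75th percentile scaling). Gtf2b, the initiation factor TFIIB, went from 1623 and 1132 to 124 and 101 (8.27% ± 0.876), and the Mediator subunits Med26 and Med4 kept 3.51% ± 0.663 and 10.2% ± 4.65, whereas Med25 rose from 216 and 170.0 to 269 and 286. Subunits of 1 complex thus ranged over relative log2 changes from -3.15 to 0.62. Of 74 chromatin remodellers and histone modifiers 43 fell (30 under all scalings) and 1 rose. Arid5a kept 9.14% ± 0.565, Phf23 15.1% ± 1.15 and the histone demethylase Kdm5b 21.6% ± 0.501, and Hdac3, a deacetylase, rose to 139.8% ± 13.4.

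Of 68 splicing factor, snRNP and hnRNP genes 41 fell and 1 rose, 16 and 1 under all scalings, and with 75th percentile scaling 16 fell and 25 rose. Lsm10, of the U7 particle, kept 9.01% ± 2.29, and Prpf3, of the U4/U6 particle, 15.2% ± 0.495, while Lsm4 rose from 1163 and 1204 to 1376 and 1646. The Lsm family therefore held both a member of the 15 shortest-lived genes and one that rose. Of 36 genes of deadenylation, decapping, the exosome and nonsense-mediated decay 19 fell and 3 rose (16 and 3 under all scalings). The falls were led by Pnrc1 and by adaptors of the deadenylase, Btg1 from 1076 and 1327 to 171 and 87.6 (11.2% ± 6.56) and Tob2 from 713 and 589 to 99.6 and 67.6 (12.7% ± 1.77). The rises were Ddx6, Smg5 from 284 and 324 to 405 and 467 and Upf1, the helicase of nonsense-mediated decay, from 16.7 and 40.7 to 39.9 and 114. Both 0 h values of Upf1 were under 50, so that it passed the filter only through its brighter arrays.

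Of 48 ribosome biogenesis genes 34 fell (22 under all scalings) and 0 rose, with a median of 60.6% left. Rrs1 kept 12.3% ± 4.56, Mphosph10 9.70% ± 1.81 and Wdr43 14.8% ± 2.36. The median of 44 cytoplasmic ribosomal proteins was 100.3% of the 0 h signal, 3 fell and 4 rose, and 0 and 4 did so under all scalings, while with 75th percentile scaling all 44 rose. Those that fell, Rps28, Rps29 and Rps14, kept 88.8% ± 3.26, 92.5% ± 1.20 and 92.5% ± 1.10, with relative log2 changes of -0.05, 0.01 and 0.01 that lay at the median and became -0.21 for Rps29 and -0.24 for Rps14 with quantile normalization. Rpl14 and Rps6 rose, from 658 and 479 to 997 and 1009 and from 855 and 704 to 1112 and 1201. Most of the group lay within a narrow band just above the median probe set.

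Of 51 translation initiation and elongation factors 21 fell and 7 rose (12 and 27 with 75th percentile scaling). Eef1e1 went from 1872 and 2012 to 335 and 483 (20.9% ± 4.33) and Eif1a, a factor of start codon scanning, from 1207 and 1233 to 265 and 236 (20.5% ± 1.97). Of 24 aminoacyl-tRNA synthetases 15 fell and 1 rose (6 and 8 with 75th percentile scaling), none of them to less than 25% in both experiments. Iars kept 48.0% ± 0.910, and Kars rose to 148% ± 15.4. Ubiquitin-conjugating enzymes and Usp proteases, 53 genes, held 31 that fell and 2 that rose (14 and 17 with 75th percentile scaling). Usp10 and Ube2t kept 15.7% ± 1.95 and 14.1% ± 2.87.

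Of 74 mitochondrial ribosomal proteins 41 fell and 11 rose (29 and 11 under all scalings), and the range was wide. Mrps31 went from 937 and 683 to 56.5 and 47.9 (6.52% ± 0.685, half-life 1.02 ± 0.0391 h) and Mrpl44 from 927 and 541 to 69.0 and 62.3 (9.48% ± 2.88), while Mrpl48 rose from 493 and 387 to 728 and 687. Of 77 respiratory chain and ATP synthase genes 7 fell and 26 rose, 0 and 26 under all scalings, with a median of 109% left, and with 75th percentile scaling 72 rose. The lowest was Uqcrfs1, the Rieske protein, at 65.6% ± 5.46, and the 2 highest were Cox7a1 and Cox8c, at 220.3% ± 97.8 and 154% ± 12.4. Ndufb2 rose from 1316 and 1045 to 1572 and 1789. Of 22 genes of the TCA cycle and of mitochondrial carriers 10 fell and 1 rose (1 and 13 with 75th percentile scaling). Vdac2, a channel of the outer membrane, kept 60.4% ± 2.09. Of 13 glycolytic genes 4 fell and 1 rose (2 and 9 with that scaling). Hk2 fell from 1333 and 795 to 189.5 and 149 (16.4% ± 3.15), while Hk1 kept 77.8% ± 1.45.

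Of 46 proteasome genes 21 fell and 7 rose (9 and 7 under all scalings, 9 and 27 with 75th percentile scaling). The assembly chaperone Psmg3 kept 16.5% ± 0.919 and the regulatory particle subunit Psmd5 27.5% ± 7.74, while Psmf1, an inhibitor of the proteasome, rose from 390.2 and 373 to 758 and 668. Of the 8 subunits of the CCT chaperonin 7 fell in the deposited values, from Cct6a with 51.5% ± 5.11 to Cct8 with 87.7% ± 0.763, but only Cct6a fell under all scalings, and with 75th percentile scaling 4 rose. Of 27 cytoskeletal genes 9 fell and 4 rose (3 and 19 with that scaling). Tubb4b kept 47.7% ± 10.9. Of 20 cholesterol synthesis genes 8 fell and 3 rose (6 and 11 with that scaling). Sqle, squalene epoxidase, went from 2108 and 1627 to 296 and 178 (12.5% ± 2.18), Hmgcs1 from 2217 and 1517 to 464 and 352 (22.05% ± 1.60), and Tm7sf2 rose from 48.2 and 43.3 to 92.4 and 88.7. With both 0 h values under 50, Tm7sf2 passed the filter only through its brighter arrays.

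The lists with the highest medians were those of granules and lysosomes. Of 18 granule and granulocytic differentiation genes 9 rose, also under all scalings, and 2 fell in the deposited values, none of them under all scalings. The median gene stood at 125.0%. Ctsg, cathepsin G, went from 4455 and 3465 to 3913 and 3178 (89.8% ± 2.75), Prtn3, proteinase 3, stood at 3178 and 1453 and then 2734 and 1307 and was not called, and Srgn, the proteoglycan that packs granule proteases, at 6215 and 6381 and then 6235 and 6372. Ltf and Lyz2, of later granules, rose from 205 and 43.4 to 327 and 99.1 and from 449 and 174 to 559 and 333. The macrophage markers on the array summed to 3317 and 3532 at 0 h and to 3267 and 3771 at 4 h, with Adgre1 making up most of the sum at 2889 and 3281 at 0 h and 2690.5 and 3310.3 at 4 h (not called), Csf1r not called, Cd68 rising, and C1qa, C1qb, Cd14 and Msr1 under 12 on each of the 4 arrays, and their part in these rises was not tested. Of 22 lysosomal genes 1 fell and 8 rose (0 and 8 under all scalings). Cd68, a lysosomal membrane protein and 1 of the macrophage markers, rose from 298 and 119.5 to 436 and 321, Ctss from 176 and 16.8 to 227 and 75.1 and Ppt1 from 584 and 277 to 779.9 and 609. Ctsc kept 80.5% ± 5.67, and Lamp1 stood at 3113 and 2858 and then 2992 and 3103.

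Of 8 noncoding RNAs and snoRNA host genes 3 fell (2 under all scalings) and 0 rose. Norad, which sequesters Pumilio proteins, kept 58.3% ± 3.85, Snhg5 56.3% ± 10.7 and Neat1, the paraspeckle scaffold, 63.6% ± 18.3. Gas5 stood at 4796 and 3223 and then 4733 and 3501. Malat1 ranged from 733 and 1889 at 0 h to 1368 and 1601 at 4 h, with the experiments moving in opposite directions.

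The time at which the loss occurred also varied. Of the 633 probe sets that fell by more than 2 on the log2 scale, 155 had reached at least 80% of their 4 h change at 2 h, 99 had reached less than 50%, and the median was 66.6%. In the contrast of 4 h with 2 h in low IL-3, 453 of the 633 fell further, a count favoured by their choice on the same 4 h arrays. Early losers among the named genes were Myc, Mycn, Dusp2, Nfkbia, Il6 and Spry2, whose log2 differences between 2 h and 4 h were 0.06, -0.08, -0.01, 0.05, 0.07 and -0.03, none past the test. Of these, Myc, Dusp2, Nfkbia and Spry2 were already at 22.4 to 59.8 at 2 h, and Il6 was at 127 and 169. The brightest probe set of Nfkbia was at 301 and 241 at 2 h. Whether a floor hid a further fall was not tested. Later losers were Sqle, Cebpa, Lsm8 and Plk1, which fell in that interval by 1.83, 1.88, 1.69 and 1.68 on the log2 scale, with adjusted p values from limma of 1.4e-06, 2.7e-05, 2.1e-05 and 3.5e-05.

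Few transcripts differed in level between high and low IL-3 at 4 h. In the direct contrast of high with low IL-3 at 4 h, 46 probe sets (0.388%) had more signal in high IL-3 and 2 (0.0169%) had less. Of the 272 genes named by rule, most of them chosen on the same 4 h arrays in low IL-3, 9 had more signal and 1 had less. Hbegf stood at 210.2 and 242 in low and 886 and 764 in high IL-3, a log2 difference of 1.80 (SE 0.15, adjusted p = 5.4e-05 from limma), and Il6 at 122 and 194 and 350.2 and 530.0, a log2 difference of 1.39. In both genes, as in the other named genes that differed, the high and low arrays did not overlap. These genes had passed the contrast on the same arrays, so this adds no support to it. How common this was over all tested probe sets was not counted. Smaller differences were those of Eef1e1, Zfp36l1, Cdkn1a and Pik3cd, a catalytic subunit of PI 3-kinase. Cdkn1a kept 21.6% ± 1.98 in low and 40.8% ± 10.7 in high IL-3. The proteasome subunit Psmd12, Cct6a and Vdac2 were higher by a log2 of 0.52, 0.36 and 0.33, and Norad alone of the named genes was lower in high IL-3, with 1573 and 1378 in low and 1186 and 999.7 in high. A gene that misses the threshold is not thereby shown to decay alike in the 2 conditions.

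**Figure D4:**
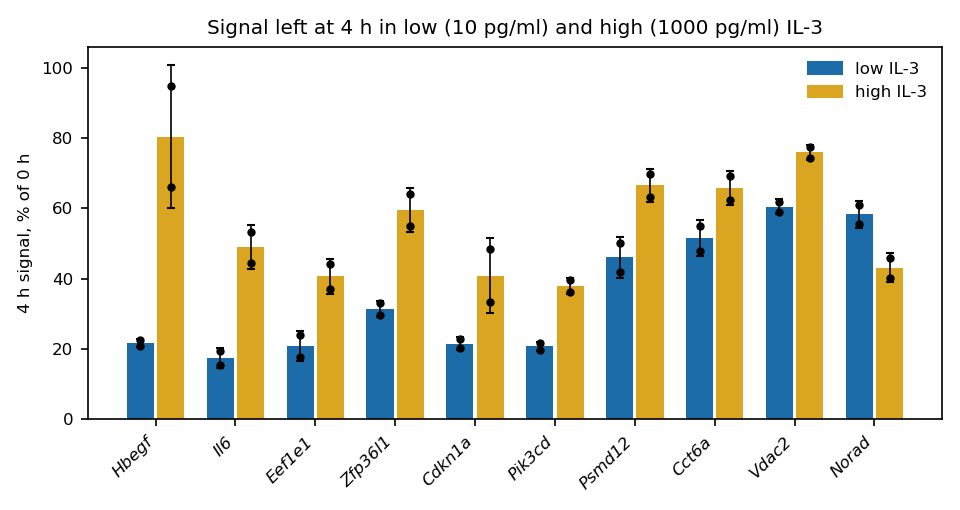
Signal at 4 h as a percentage of 0 h (vertical axis, from 0) in low IL-3 (blue) and high IL-3 (yellow) for the 10 named genes that differed between the conditions, as the mean of 2 experiments with the SD as error bar and each experiment as a point. Hbegf has the widest gap, 21.7% against 80.4%, and Norad is the 1 gene with the lower bar in high IL-3.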

How the data were processed

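RNA of 32Dcl3 cells was hybridised to 10 Affymetrix mouse 430A 2.0 arrays, 2 for each of 5 groups. The deposited values are linear intensities per probe set, which the authors computed from all 10 arrays together with dChip at its default settings (version not given in the sources used here). This normalization adjusts the arrays to one another but left the 0 h arrays brighter. The paper states that it was picked over RMA and MAS because it best met an expectation of more signal at 0 h. The brighter 0 h arrays were thus a criterion of that choice. How much of a loss of total message the normalization kept is not known. No column of the table was left out (0 columns). Genes were named through the platform annotation given for the array: 20393 probe sets named 1 gene, 691 several and 1606 none, and 20364 symbols were updated through gene identifiers.

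Probe sets with a mean of at least 50 over the 10 arrays were tested with limma (version 3.58.1, under R 4.3.3) after log2(intensity + 16), using all 10 arrays, 5 groups, the experiment as a block, a variance trend and Benjamini-Hochberg adjustment at 0.05 over 11856 probe sets. Folds are therefore on the log2(value + 16) scale, which understates changes of dim probe sets. The arrays of an experiment came from 1 divided culture, and their deviations from the group means correlated at 0.762 to 0.887. Half-lives assume exponential loss between 0 h and 4 h. Tables were handled with Python 3.11.15, numpy 2.4.6, pandas 2.3.3 and scipy 1.17.1, and drawn with matplotlib 3.10.9.

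Named genes were the 15 with the largest fall and the 15 with the largest rise among probe sets that name 1 gene, passed the test and moved the same way in both experiments, each gene by its extreme probe set. From each of 35 gene lists, with 1 probe set a gene (the brightest), up to 4 genes with the largest fall and up to 3 with the highest change were added. Other list members named in the text were chosen after their values were seen. The members and lists were chosen with earlier results of these data known. In simulated data with 200 of 11856 probe sets changed (5 runs of the comparison of 4 h in low IL-3 with 0 h), the fit called 97.6% of those at a log2 change of -2, 73.2% at -1, 26% at -0.5 and 82.4% at 1, and 4.55% of its calls were false. The simulation changed far fewer probe sets than were called in the data and held no shift common to an array. Its shares therefore do not give the recovery in the data or the false calls that scaling could cause.

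Alternatives were pseudocounts of 1 and 64, a filter at 200 and none, 75th percentile, quantile, Gapdh and median scaling, no variance trend, no block, the 4 arrays alone and each array left out.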

Additional observations from a re-analysis of the deposited data

Results flagged for a closer look

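Of the 272 genes that the text names by rule, 10 differed between high and low IL-3 at 4 h in the direct limma contrast, which does not use the 0 h arrays and was adjusted over all tested probe sets, of which 0.388% had more signal in high IL-3 and 0.0169% had less. The genes had been chosen by their change on the same 4 h arrays in low IL-3, so that this count is a description. Hbegf was higher in high IL-3 by a log2 of 1.80 (adjusted p = 5.4e-05), with 80.4% ± 20.4 of its 0 h signal left against 21.7% ± 1.12 in low IL-3. For Il6 the difference was 1.39 (adjusted p = 2.6e-04, 48.9% ± 6.24 against 17.5% ± 2.82). Eef1e1 differed by 0.94 (adjusted p = 0.015), Zfp36l1 by 0.89 (adjusted p = 0.029), Cdkn1a by 0.88 (adjusted p = 0.013) and Pik3cd by 0.83 (adjusted p = 0.024). Differences were smaller for Psmd12 at 0.52, Cct6a at 0.36 and Vdac2 at 0.33, each with an adjusted p of 0.037. Norad was lower in high IL-3, with a log2 difference of -0.43 (adjusted p = 0.048). Of the 10 genes 9 were higher in high IL-3, as were 46 of the 48 calls over all tested probe sets. Groups of 2 arrays are too small for a search for single outlying arrays.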

How the results depend on the processing

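The count of probe sets that fell, 4535 in the deposited values, was 2854 with 75th percentile scaling, 2811 with each array centred on its median, 2970 with a mean intensity of 200 as the filter and 2148 with no replicate block. The count that rose, 1819, was 5836, 5993 and 4807 with 75th percentile scaling, median centring and quantile normalization, 148 with no replicate block, and 3037 when tested against the median change, an alternative chosen after seeing the data. With any array left out the counts were 3659 to 4672 and 718 to 2003. The median log2 change of -0.12 turned to 0.30, 0.31 and 0.15 with 75th percentile scaling, median centring and quantile normalization, and was -0.018 with no filter and -0.19 to -0.066 with an array left out.

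Relative to the median, some named genes that lay near it changed sign. Cks1b reached 0.00102 with 75th percentile scaling. Rps29 and Rps14 went to -0.00724 and -0.00606 with the filter at 200, -0.0949 and -0.0938 with no filter, -0.00639 and -0.00511 with a pseudocount of 64, and -0.21 and -0.24 with quantile normalization. With an array left out the relative log2 change ran from -0.0902 to 0.0578 for Cks1b, -0.139 to 0.0536 for Rps28, -0.0553 to 0.0875 for Rps29, -0.0567 to 0.0912 for Rps14, -0.124 to 0.00434 for Cct8 and -0.0807 to 0.0284 for Ctsg. Of the 272 named genes 75 lost their call without the block, 18 in the fit of the 4 arrays alone, 16 with 75th percentile scaling (which added 48 calls among them) and 35 without the 4 h array of experiment 2 in low IL-3. The depth of an array cannot be counted, and the number of arrays limits the precision.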

Other observations

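Probe sets of 1 gene did not always move together. The examples here were chosen after their values were seen. Of 2680 genes with several tested probe sets, all of them fell in 689 and all rose in 203, while in 63 (2.35%) at least 1 fell and another rose, 18 of them under all 5 scalings. The spread within a gene had a median of 0.31 on the log2 scale and exceeded 2 in 44 genes. Klf9, a Krüppel-like transcription factor, had 1 probe set that went from 802 and 322 at 0 h to 67.5 and 28.2 at 4 h and another that went from 57.1 and 46.3 to 96.1 and 67.0. Luc7l2, a splicing factor, had 1 that went from 514 and 518 to 116 and 73.5, with a relative log2 change of -2.17, and another from 1023 and 555 to 1125 and 833, with 0.47. Similar pairs were those of Mbp (-2.19 and 1.03), Acvr1b (-1.94 and 0.78), Hnrnpdl (-1.87 and 0.70), the snoRNA host gene Snhg1 (-2.05 and 0.39) and Nip7 (-1.23 and 1.00). Which transcript each probe set reads was not examined.

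A single probe set with no gene name rose by more than 2 on the log2 scale. It stood at an intensity of 1 on 9 of the 10 arrays and at 1716 on the 4 h array of experiment 2 in low IL-3, so that its fitted log2 change of 3.34 (SE 1.10, adjusted p = 0.018 from limma) rests on 1 array.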
